A study of Mus musculus with 24 samples.

Results

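The endothelial marker genes Pecam1, Cdh5, Tek, Tie1, Kdr, Flt1, Eng, Emcn, Esam and Cldn5 were followed through RNA-seq libraries of cultured mouse fat cells. These 10 genes were taken as a list of names and read from the deposited count table by Ensembl identifier, 1 identifier per gene, out of 53465 genes in the table. Of the 10, 9 were among the 14785 genes with enough counts to be tested, and Cldn5 was not. The cells were stromal vascular cells, the mixed cells left when adipocytes are removed from fat, that had been driven to become adipocytes in culture. They came from epididymal (eWAT) or inguinal (iWAT) white fat. Control mice (Cont) carried a floxed Senp2 gene, and the knockout mice (aKO) carried the same floxed gene together with Adipoq Cre, so both genotypes share the floxed allele. Adipoq is the adiponectin gene and its promoter is active in adipocytes, so the deletion depends on cells that turn this promoter on. All cultures had first been induced for 2 days with dexamethasone, isobutylmethylxanthine and insulin and then kept with insulin for 5 days. Cultures of each genotype received either an siRNA labelled siNS or an siRNA against Cebpb (siCEBPb). This gave 8 groups of 3 libraries, and the comparisons are of aKO with Cont, where the Cre acts on Senp2, the gene of a protease that removes SUMO, and of siCEBPb with siNS, where Cebpb encodes the transcription factor C/EBPβ. Nothing in the labels says whether a group's 3 libraries came from different cultures or mice, and the p-values then cover only the spread between these libraries, which may be technical. Sex, age and the donor animals behind each library were not given in the sources used here.

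Endothelial cells line blood vessels and hold to each other through cadherin and tight junctions. Vascular endothelial growth factor signals through the receptors encoded by Kdr and Flt1, and angiopoietins signal through Tek with Tie1 as its partner, while endoglin (Eng) is a co-receptor for BMP and TGF-β ligands. White fat is densely vascularised, and several of these genes are also expressed outside endothelium: Pecam1 in leukocytes and platelets, and Eng in stromal cells and macrophages. In bulk libraries, fewer cells of a type and less RNA per cell cannot be told apart, and the counts do not say which cells carried a transcript.

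In the GENCODE annotation of GRCm38, all 10 genes are protein-coding. Cdh5 (ENSMUSG00000031871) lies at chr8:104101625-104144511, Pecam1 (ENSMUSG00000020717) at chr11:106654217-106750628, Kdr (ENSMUSG00000062960) at chr5:75932827-75978458, Flt1 (ENSMUSG00000029648) at chr5:147561604-147726011, Tek (ENSMUSG00000006386) at chr4:94739289-94874976 and Eng (ENSMUSG00000026814) at chr2:32646595-32682669. The exons of 9 of them overlap no exon of another gene, and Eng shares 61 exonic bases with Fpgs on the opposite strand. The 250 bases before the start site are printed for Tek and Kdr, the members that moved apart from the others, and for Flt1 and Eng, abundant members that fell with genotype. Sequences are from RefSeq on GRCm38.p6, written 5′ to 3′ along the gene's strand. Tek is at chr4:94739039-94739288 on the plus strand, Kdr at chr5:75978456-75978705 on the minus strand, Flt1 at chr5:147726012-147726261 on the minus strand, and Eng at chr2:32646345-32646594 on the plus strand. Capitals mark matches on either strand to AGGAAG, a core that factors of the ETS family bind.
Tek: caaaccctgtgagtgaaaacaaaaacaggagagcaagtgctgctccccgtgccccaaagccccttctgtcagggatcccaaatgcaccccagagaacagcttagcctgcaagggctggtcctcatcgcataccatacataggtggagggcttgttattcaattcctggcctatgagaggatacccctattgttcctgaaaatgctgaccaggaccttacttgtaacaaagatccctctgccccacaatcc
Kdr: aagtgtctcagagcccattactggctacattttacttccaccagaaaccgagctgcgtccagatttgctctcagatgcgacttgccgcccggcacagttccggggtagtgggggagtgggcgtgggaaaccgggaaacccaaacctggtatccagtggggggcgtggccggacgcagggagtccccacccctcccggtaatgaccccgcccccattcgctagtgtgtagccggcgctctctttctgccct
Flt1: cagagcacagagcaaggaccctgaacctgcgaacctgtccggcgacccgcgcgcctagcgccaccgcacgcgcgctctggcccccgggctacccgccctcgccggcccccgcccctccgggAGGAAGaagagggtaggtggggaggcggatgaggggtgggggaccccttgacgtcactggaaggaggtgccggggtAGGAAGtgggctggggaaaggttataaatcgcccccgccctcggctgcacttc
Eng: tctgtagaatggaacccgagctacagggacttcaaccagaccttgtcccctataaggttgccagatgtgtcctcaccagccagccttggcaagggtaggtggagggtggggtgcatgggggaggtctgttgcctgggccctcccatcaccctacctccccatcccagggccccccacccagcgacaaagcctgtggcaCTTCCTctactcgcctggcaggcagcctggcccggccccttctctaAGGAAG
The matches lie 129 and 53 bases before the start of Flt1, both on the gene's strand, and 52 and 6 bases before that of Eng, on the opposite and the same strand. AGGAAG occurs in 29.5% of 32851 mouse promoter windows of the same length. The related core CGGAAG (13.6% of windows) was found in none of the 4 printed windows, and neither was TTGCNNAA, a C/EBP-type pattern (9.56% of windows). The motifs do not overlap one another at these matches. The table held 7 of the 10 members, without Pecam1, Cdh5 and Esam. Among the windows not printed, Tie1 held AGGAAG once and CGGAAG once, Emcn held AGGAAG at 2 positions, and Cldn5 held none of the 3 motifs.

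The depth was between 8435494 and 15388744 gene counts in 23 libraries and only 603585 in iWAT aKO siNS replicate 2, where 93.3% of the listed reads were not aligned. In that shallow library 1 count equals 1.98 CPM (counts scaled to a common library size), so Cdh5, Tie1, Emcn, Esam and Cldn5 were at 0 counts there, and 3 counts, the limit that a count of 0 allows, correspond to 5.93 CPM. Most member results that rest on it are given with and without it, and so are the marker counts and sums that it moved. Cebpb averaged 168 ± 12.5 CPM in eWAT Cont siNS and 50.4 ± 7.56 CPM in eWAT Cont siCEBPb (SD, n = 3), and 125 ± 18.3 and 36.0 ± 2.02 CPM in the iWAT counterparts. In aKO it averaged 151 ± 8.67 with siNS and 27.4 ± 6.49 CPM with siCEBPb in eWAT, and 115 ± 11.9 and 18.5 ± 5.43 CPM in iWAT. Senp2 counted over the whole gene was 54.5 ± 2.35 CPM in eWAT Cont siNS and 47.6 ± 4.82 CPM in eWAT aKO siNS (adjusted p = 0.0519, edgeR). In iWAT siNS it was 51.0 ± 4.67 and 51.5 ± 5.11 CPM, and counts over the whole gene cannot separate a deleted part from the rest, so they do not check the genotype labels. Genotypes are given as labelled, and every direction by genotype below is between libraries labelled aKO and Cont. Adipocyte markers were present: 10 such genes summed to between 527 and 1980 CPM in every library.

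By level, Eng stood far above the other members. Per kilobase of exon it averaged 27.5 ± 2.57 CPM in eWAT Cont siNS (SD, n = 3), against 1.89 ± 0.258 for Kdr, the next. Cdh5 (1.34 ± 0.211), Flt1 (1.18 ± 0.0798) and Tek (1.17 ± 0.112) followed, and these 3 did not differ beyond their spread. Pecam1 (0.552 ± 0.0548) and Esam (0.369 ± 0.103) came next, and the lowest 3, Tie1 (0.215 ± 0.0445), Emcn (0.170 ± 0.0600) and Cldn5 (0.162 ± 0.0531), were not separated from each other. Neighbours are called separate here where their means differ by more than the sum of their SDs. The same top place was held by Eng in all 8 groups, while Tek moved from the fifth place in both Cont siNS groups to the second in both aKO siNS groups.

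**Figure D1:**
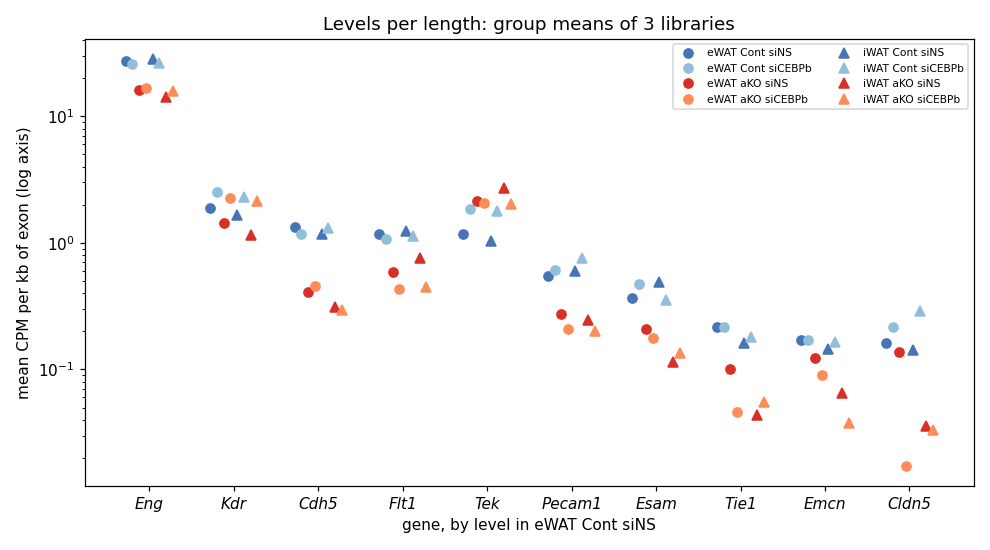
Mean CPM per kilobase of exon (log axis) for each gene in each of the 8 groups, with circles for eWAT and triangles for iWAT. Eng lies above all others in each group, and in both depots Tek is higher and Cdh5, Flt1 and Pecam1 are lower in aKO than in Cont with siNS.

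With siNS, most members were lower and Tek was higher in the libraries labelled aKO than in those labelled Cont. In eWAT, Cdh5, Pecam1, Flt1, Eng, Kdr and Tie1 fell and Tek rose, 7 of 9 tested members, where 20.4% of all 14785 genes were called. In iWAT, Cdh5, Pecam1, Flt1, Eng, Kdr and Esam fell and Tek rose, also 7 of 9, where 15.2% were called (2243 genes, and 1436 without iWAT aKO siNS replicate 3). Tie1, Esam and Emcn entered the test mainly through Cont libraries: the filter level of 0.745 CPM was reached by 0, 0 and 1 of the 12 aKO libraries, against 11, 12 and 9 of the 12 Cont libraries. The counts over the 9 therefore support nothing by themselves, and the results below rest on Cdh5, Pecam1, Kdr, Flt1, Eng and Tek, each over that level in at least 11 of 12 aKO libraries. The median log2 difference of the 9 was -0.81 in eWAT and -0.98 in iWAT, beside 0.00356 and -0.000871 over all genes tested. These medians include Tie1, Esam and Emcn, the eWAT value being that of Esam, and so support nothing by themselves either.

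**Figure D2:**
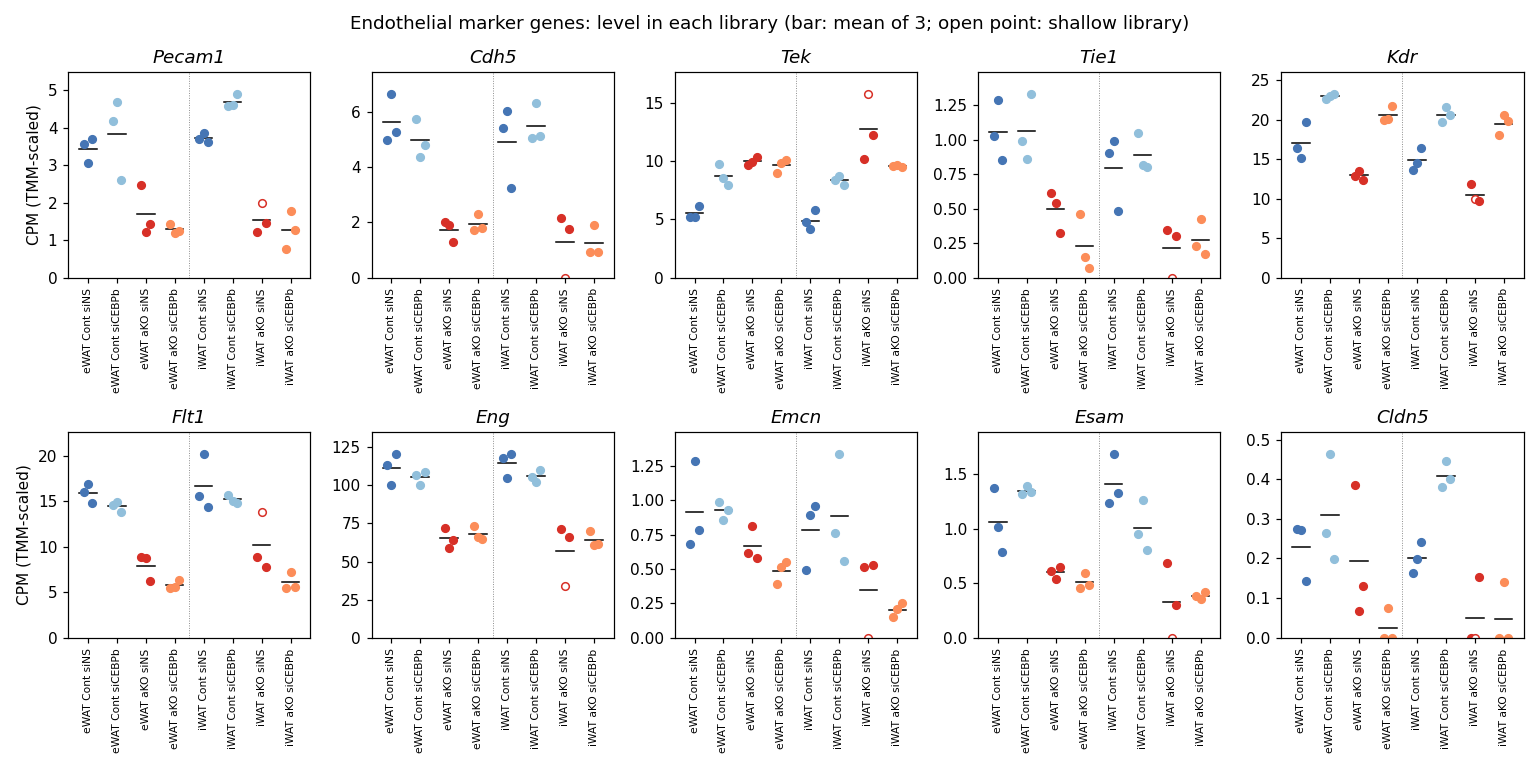
CPM of each member in each of the 24 libraries, by group, with a bar at the mean of 3 and an open point for the shallow library (iWAT aKO siNS replicate 2). Each panel has its own axis from 0. Cdh5, Flt1 and Eng lie lower in every aKO group than in every Cont group once the shallow library is set aside, Tek is lowest in the Cont siNS groups, and Kdr is higher with siCEBPb in every pairing.

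Among the junction genes, Cdh5, the cadherin that endothelial cells use at their adherens junctions, had the largest fall among Cdh5, Pecam1, Kdr, Flt1 and Eng in eWAT with siNS. Its levels there were 5.00, 6.65 and 5.27 CPM in Cont and 2.00, 1.90 and 1.30 CPM in aKO. Every aKO library was below every Cont library. The log2 difference was -1.71 ± 0.23 (SE, edgeR quasi-likelihood test, adjusted p = 4.53e-06). In iWAT the levels were 5.43, 6.04 and 3.25 CPM in Cont and 2.15, 0 and 1.75 CPM in aKO, the 0 in the shallow library. The groups did not overlap there either, and the log2 difference was -1.40 ± 0.29 (adjusted p = 9.37e-04, edgeR), and -1.37 ± 0.27 without the shallow library.

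Pecam1, an adhesion molecule of endothelial junctions, fell in the same comparisons. In eWAT it was at 3.56, 3.05 and 3.70 CPM in Cont siNS and 2.46, 1.22 and 1.42 CPM in aKO siNS, with no overlap and a log2 difference of -1.03 ± 0.24 (adjusted p = 0.00247, edgeR). In iWAT the Cont siNS libraries held 3.70, 3.86 and 3.61 CPM and the aKO siNS libraries 1.21, 1.98 and 1.45 CPM, the middle value from 1 count. The log2 difference was -1.46 ± 0.31 (adjusted p = 0.00115, edgeR). Esam, another adhesion molecule of tight junctions, was lower in all 3 aKO libraries in each depot. It passed the test in iWAT (-1.55 ± 0.37, adjusted p = 0.00422, edgeR) and not in eWAT (-0.81 ± 0.30, adjusted p = 0.0786). The iWAT difference was -1.52 ± 0.40 without the shallow library, its call was lost without iWAT aKO siNS replicate 3 (adjusted p = 0.165), and the eWAT difference passed without eWAT Cont siNS replicate 3 (adjusted p = 0.048) and with limma voom (adjusted p = 0.0153).

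Cldn5, the main claudin of tight junctions in many endothelia, was barely detected. Its counts summed over the 3 libraries to 10 in eWAT Cont siNS and 8 in aKO siNS, to 6 and 2 in iWAT, to 14 and 1 in eWAT with siCEBPb, and to 15 and 2 in iWAT with siCEBPb. The gene held 58 counts over all 24 libraries and was at 0 in 6 of them. Tested without the filter, it gave an adjusted p of 0.0296 in eWAT and 0.0447 in iWAT with siCEBPb (edgeR).

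Of the VEGF receptors, Flt1, which binds VEGF tightly and also exists as a soluble decoy, fell by more than Kdr, the main signalling receptor. In eWAT with siNS, Flt1 stood at 16.0, 17.0 and 14.8 CPM in Cont and 8.85, 8.73 and 6.22 CPM in aKO. The groups were clearly apart, with a log2 difference of -1.01 ± 0.13 (adjusted p = 1.94e-06, edgeR). In iWAT it was at 15.5, 20.2 and 14.4 CPM in Cont and 8.86, 13.8 and 7.83 CPM in aKO, the 13.8 from 7 counts in the shallow library, and the log2 difference was -0.98 ± 0.15 (adjusted p = 4.32e-05, edgeR). Kdr was at 16.4, 15.1 and 19.7 CPM in eWAT Cont siNS and 12.9, 13.5 and 12.4 CPM in aKO siNS. The log2 difference of Kdr was -0.40 ± 0.10 (adjusted p = 0.00341, edgeR). In iWAT, Kdr was at 13.6, 14.6 and 16.4 CPM in Cont siNS and 11.8, 9.89 and 9.74 CPM in aKO siNS. This difference of -0.46 ± 0.12 (adjusted p = 0.00811, edgeR) was lost without iWAT aKO siNS replicate 3 (adjusted p = 0.148). Without the shallow library, the iWAT differences were -1.48 ± 0.31 for Pecam1, -1.01 ± 0.15 for Flt1 and -0.47 ± 0.12 for Kdr. No Kdr level of the aKO siNS groups reached the lowest Cont siNS level of its depot.

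The angiopoietin receptor Tek went the other way. In eWAT its levels were 5.20, 5.22 and 6.12 CPM in Cont siNS and 9.70, 9.95 and 10.4 CPM in aKO siNS. All aKO libraries lay above all Cont libraries, with a log2 difference of 0.86 ± 0.12 (adjusted p = 5.32e-06, edgeR). In iWAT they were 4.77, 4.16 and 5.77 CPM in Cont siNS and 10.2, 15.8 and 12.2 CPM in aKO siNS, the 15.8 from 8 counts. The log2 difference was 1.24 ± 0.14 (adjusted p = 4.65e-07, edgeR), and 1.21 ± 0.14 without the shallow library. Its partner Tie1, an orphan receptor, was at 0.854 to 1.29 CPM in eWAT Cont siNS and 0.324 to 0.616 CPM in aKO siNS. That difference of -1.11 ± 0.37 passed (adjusted p = 0.0331, edgeR) but not with DESeq2 (adjusted p = 0.109), without the filter (0.0569), or without eWAT Cont siNS replicate 1 (0.0698) or 2 (0.143) or eWAT aKO siNS replicate 2 (0.0653) or 3 (0.176). In iWAT the Tie1 difference was -1.34 ± 0.53 (adjusted p = 0.0932, edgeR), and -1.32 ± 0.55 without the shallow library.

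Eng, the most abundant member, fell by a similar amount in every genotype comparison. It was at 113, 99.9 and 120.4 CPM in eWAT Cont siNS and 72.1, 59.1 and 64.4 CPM in aKO siNS. The groups were apart, with a log2 difference of -0.77 ± 0.09 (adjusted p = 6.81e-07, edgeR). In iWAT it was at 118, 105 and 120.4 CPM in Cont siNS and 71.4, 33.6 and 66.4 CPM in aKO siNS, the 33.6 from 17 counts in the shallow library. The log2 difference was -0.78 ± 0.10 (adjusted p = 4.50e-06, edgeR), and -0.74 ± 0.09 without that library. Emcn, the sialomucin endomucin of capillary and venous endothelium, had 0.684 to 1.29 CPM in eWAT Cont siNS and 0.583 to 0.813 CPM in aKO siNS, with overlapping groups (-0.45 ± 0.33, adjusted p = 0.393, edgeR). In iWAT its difference was -0.55 ± 0.46 (adjusted p = 0.508), and -0.52 ± 0.48 without the shallow library.

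**Figure D3:**
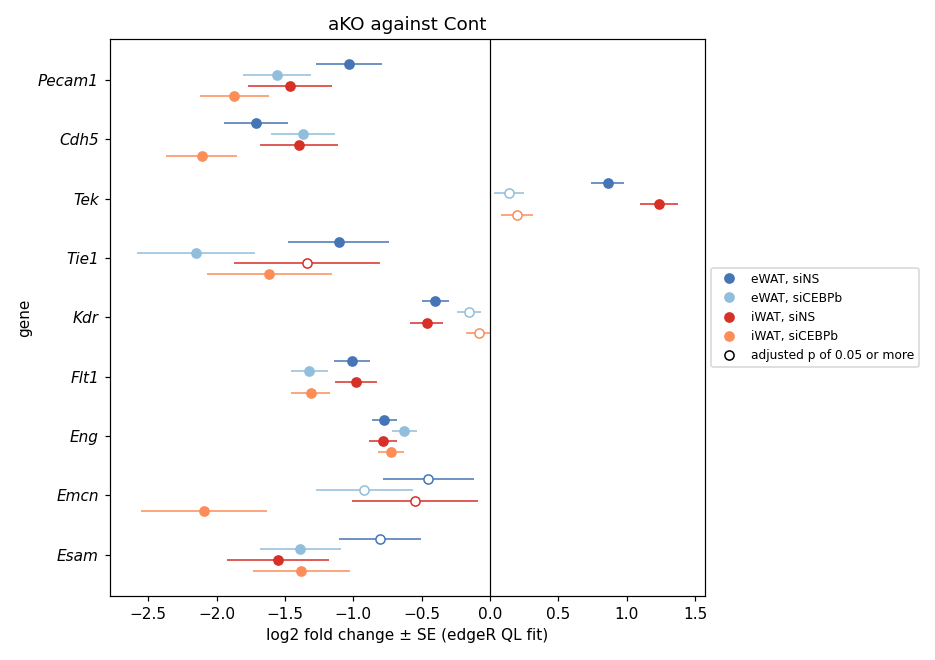
Log2 difference of aKO against Cont with its SE for the 9 tested members, in 4 comparisons (eWAT and iWAT, siNS and siCEBPb), with open points where the adjusted p was 0.05 or more. Cdh5, Pecam1, Flt1 and Eng lie left of 0 in all 4, and Tek lies right of 0 with siNS (0.86 and 1.24) and near 0 with siCEBPb (0.14 and 0.20).

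With siCEBPb, Cdh5, Pecam1, Flt1, Eng, Esam and Tie1 fell in aKO in both depots. Emcn fell in iWAT and did not pass in eWAT (-0.92 ± 0.36, adjusted p = 0.106, edgeR), and Tek and Kdr passed in neither depot. In eWAT 6 of the 9 fell and 0 rose, where 10.8% of all genes were called. In iWAT 7 fell and 0 rose, where 10.0% were called (1483 genes, and 942 without iWAT aKO siCEBPb replicate 1). Both counts include Esam and Tie1, and the iWAT count also Emcn. These genes entered the test mainly through Cont libraries, so the counts support nothing by themselves. Cebpb itself was lower in aKO than in Cont under siCEBPb, by -0.88 ± 0.17 in eWAT and -0.97 ± 0.19 in iWAT (adjusted p = 0.00134 and 0.00155, edgeR), and its part in these differences was not tested. The median log2 difference of the 9 was -1.32 and -1.38, beside -0.00202 and -0.0016 over all genes. These medians include Tie1, Esam and Emcn, the iWAT value being that of Esam, and support nothing by themselves either. Cdh5 was at 5.75, 4.37 and 4.80 CPM in eWAT Cont and 1.70, 2.29 and 1.80 CPM in aKO (-1.37 ± 0.23, adjusted p = 1.56e-04, edgeR). In iWAT it was at 5.04, 6.31 and 5.14 CPM in Cont and 0.918, 1.90 and 0.926 CPM in aKO (-2.11 ± 0.26, adjusted p = 2.26e-06). The Cdh5 groups did not overlap in either depot.

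Pecam1 differed by -1.56 ± 0.25 in eWAT and -1.87 ± 0.25 in iWAT with siCEBPb (adjusted p = 7.10e-05 and 8.65e-06, edgeR). Flt1 differed by -1.32 ± 0.14 and -1.31 ± 0.14 (adjusted p = 1.35e-07 and 2.69e-07), from 13.8 to 14.95 CPM in eWAT Cont to 5.44 to 6.36 CPM in aKO. Eng differed by -0.63 ± 0.09 and -0.73 ± 0.09 (adjusted p = 2.73e-05 and 5.26e-06). All 3 genes were lower in every aKO library than in any Cont library of the same depot. Esam fell in eWAT (-1.39 ± 0.30, adjusted p = 0.00183, edgeR) and in iWAT (-1.38 ± 0.36, adjusted p = 0.0128), the latter not with DESeq2 (adjusted p = 0.061) nor without iWAT Cont siCEBPb replicate 2 (0.138) or iWAT aKO siCEBPb replicate 2 (0.0552). Tie1 fell in eWAT (-2.15 ± 0.43, adjusted p = 9.68e-04, edgeR) and in iWAT (-1.61 ± 0.46, adjusted p = 0.0213). The iWAT call for Tie1 did not hold with DESeq2 (adjusted p = 0.0579) or without iWAT Cont siCEBPb replicate 1 (0.0813), iWAT aKO siCEBPb replicate 1 (0.0953) or iWAT aKO siCEBPb replicate 3 (0.0895). Emcn fell in iWAT (-2.09 ± 0.46, adjusted p = 0.00271, edgeR), from 8, 18 and 7 counts in Cont to 2, 3 and 3 counts in aKO, and its adjusted p was 0.0729 without iWAT Cont siCEBPb replicate 2.

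With siCEBPb the Tek difference between genotypes was 0.14 ± 0.11 in eWAT (95% interval -0.09 to 0.36, adjusted p = 0.54, edgeR) and 0.20 ± 0.12 in iWAT (-0.04 to 0.44, adjusted p = 0.385). Kdr differed by -0.16 ± 0.09 in eWAT (-0.34 to 0.02, adjusted p = 0.324) and by -0.08 ± 0.09 in iWAT (-0.28 to 0.11, adjusted p = 0.713).

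The siRNA against Cebpb itself moved few members. The comparisons of siRNAs share their siNS libraries with the genotype comparisons, so the 2 sets are not independent. In Cont cells, Tek and Kdr rose in both depots and no member fell, 2 of 9 called, where 26.8% of all genes were called in eWAT and 24.3% in iWAT. In aKO cells, Kdr rose and Flt1 fell in both depots, 2 of 9 called, where 35.7% were called in eWAT and 31.3% in iWAT. These shares of members are near or below the share of all genes.

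Tek was at 9.79, 8.53 and 7.99 CPM in eWAT Cont siCEBPb, all above the 5.20 to 6.12 CPM of Cont siNS. The log2 difference was 0.67 ± 0.12 (adjusted p = 9.08e-05, edgeR). In iWAT Cont it was at 8.37, 8.77 and 7.95 CPM with siCEBPb, a difference of 0.78 ± 0.14 (adjusted p = 7.07e-05). In aKO cells the siCEBPb libraries held 8.98, 9.90 and 10.1 CPM in eWAT (-0.05 ± 0.11, adjusted p = 0.748, edgeR) and 9.57, 9.66 and 9.51 CPM in iWAT (-0.25 ± 0.12, adjusted p = 0.123, and -0.24 ± 0.13 without the shallow library). In each depot the lowest Tek levels were those of the 3 Cont siNS libraries. The test of whether the siRNA effect differed by genotype was passed by Tek alone of the 9 members in each depot, at -0.72 ± 0.16 in eWAT (adjusted p = 0.00718, edgeR; 6.34% of all genes called) and -1.04 ± 0.18 in iWAT (adjusted p = 0.00105; 3.51% called). Without the shallow library, 1677 and 939 genes passed these tests in place of 938 and 519, and Tek stood at -1.02 ± 0.19 in iWAT. The counts were lowest, at 434 and 291, without eWAT aKO siCEBPb replicate 1 and without iWAT aKO siCEBPb replicate 1. For the other 8 members a difference between genotypes in the siRNA effect was not shown. The 95% intervals for Kdr were -0.03 to 0.51 in eWAT and 0.07 to 0.69 in iWAT (adjusted p = 0.304 and 0.186, edgeR).

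Kdr was higher with siCEBPb in all 4 comparisons. In eWAT it rose from 15.1 to 19.7 CPM in Cont siNS to 22.6, 22.9 and 23.3 CPM in Cont siCEBPb (0.43 ± 0.09, adjusted p = 5.85e-04, edgeR). In eWAT aKO it rose from 12.4 to 13.5 CPM to 20.0, 20.0 and 21.7 CPM (0.67 ± 0.10, adjusted p = 2.02e-06). In iWAT the differences were 0.49 ± 0.10 in Cont (adjusted p = 5.12e-04) and 0.86 ± 0.11 in aKO (adjusted p = 8.57e-07), the latter 0.85 ± 0.11 without the shallow library. In each of these pairs the siCEBPb libraries lay above the siNS libraries. Flt1 did not pass in Cont, at -0.14 ± 0.12 and -0.14 ± 0.13. In aKO it fell by 0.45 on the log2 scale in eWAT (SE 0.15, adjusted p = 0.0205, edgeR) and by 0.47 in iWAT (SE 0.17, adjusted p = 0.0344), and by 0.45 there without the shallow library (SE 0.16). The eWAT call was lost without eWAT aKO siNS replicate 1 (adjusted p = 0.086) or 2 (0.0937), or eWAT aKO siCEBPb replicate 1 (0.0707) or 2 (0.0507). The iWAT call was lost with DESeq2 (adjusted p = 0.053), without the filter (0.0592), and without iWAT aKO siNS replicate 1 (0.168) or iWAT aKO siCEBPb replicate 1 (0.126) or 3 (0.104).

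Cdh5, Pecam1 and Eng did not pass any siRNA comparison. For Eng the intervals were narrow: -0.27 to 0.10 in eWAT Cont, -0.13 to 0.26 in eWAT aKO, -0.30 to 0.08 in iWAT Cont and -0.27 to 0.16 in iWAT aKO (95%, log2). For Cdh5 they were wider, from -0.58 to 0.21 in eWAT Cont and from -1.29 to 0.15 in iWAT aKO. Without the shallow library, the iWAT aKO differences were -0.11 ± 0.09 for Eng, -0.61 ± 0.34 for Cdh5 and -0.07 ± 0.36 for Pecam1. Tie1 differed by -1.05 ± 0.51 in eWAT aKO (adjusted p = 0.119, edgeR), which passed with limma voom (0.0204) and without eWAT aKO siCEBPb replicate 1 (0.0156). Emcn differed by -1.29 ± 0.57 in iWAT aKO (adjusted p = 0.0985), which passed with limma voom (0.0415) and was -1.33 ± 0.59 without the shallow library.

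**Figure D4:**
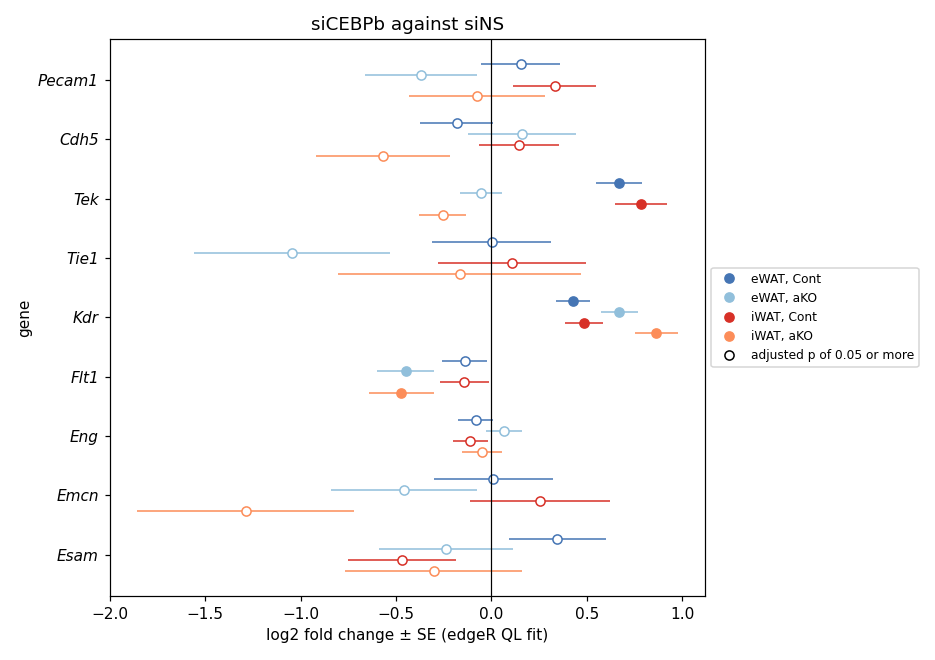
Log2 difference of siCEBPb against siNS with its SE for the 9 tested members, in Cont and aKO cells of each depot, with open points where the adjusted p was 0.05 or more. Kdr lies right of 0 in all 4 comparisons (0.43 to 0.86), and Tek lies right of 0 in Cont cells (0.67 and 0.78) and not in aKO cells.

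Between depots, none of the 9 members passed iWAT against eWAT in any of the 4 pairs of groups by edgeR. Few genes of any kind did, so a count of 0 among 9 members is near the background: 1.20% of all genes were called in Cont siNS, 3.35% in Cont siCEBPb, 0.352% in aKO siNS and 1.44% in aKO siCEBPb. At an unadjusted p under 0.05 the members numbered 1, 0, 1 and 1, and DESeq2 and limma voom called 0 in each. Without the shallow library 1123, 1713, 822 and 1478 genes passed in place of 178, 496, 52 and 213, and 0 members did. Leaving out other libraries lowered these counts to as few as 23, 60, 0 and 16, on dropping iWAT Cont siNS replicate 3, eWAT Cont siCEBPb replicate 3, iWAT aKO siNS replicate 1 or eWAT aKO siCEBPb replicate 2. In aKO siCEBPb a fit with the replicate number as a block called 119 genes in place of 213, and 0 members. No gene passed the test of whether the genotype effect with siNS differed by depot (0% called, edgeR), and 0 members had an unadjusted p under 0.05 there, beside 415 of all genes. For Eng the interval of that difference was -0.30 to 0.28, and for Tek it was -0.01 to 0.76 (95%, log2).

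Across the 23 deeper libraries, the log2 levels of the 7 tested members other than Tek and Kdr ran together, with Pearson r from 0.61 to 0.94 over 21 pairs. Tek ran against them (r from -0.73 to -0.38), and Kdr ran with neither them (r from 0.04 to 0.28) nor Tek (r = 0.01). These are descriptions: the libraries share groups, depth and scaling, and once group means were subtracted the 21 values spread from -0.58 to 0.74. Over all tested protein-coding genes, those most like Cdh5 were Nr2f1 (r = 0.945), Flt1 (0.937) and Sema5a (0.934). Those most like Tek were Smpd3 (0.955), Hist1h1c (0.943) and Gpc6 (0.933), those most like Kdr were Fgf21 (0.948), Fam20a (0.941) and Gpc4 (0.936), and those most like Eng were Ccbe1 (0.957), Wt1 (0.953) and Thbd (0.953). The genes most like Flt1 included Frzb (0.957) and Bmper (0.953), and Pecam1 was most like Bmper (0.918), Folr1 (0.914) and Wt1 (0.912).

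**Figure D5:**
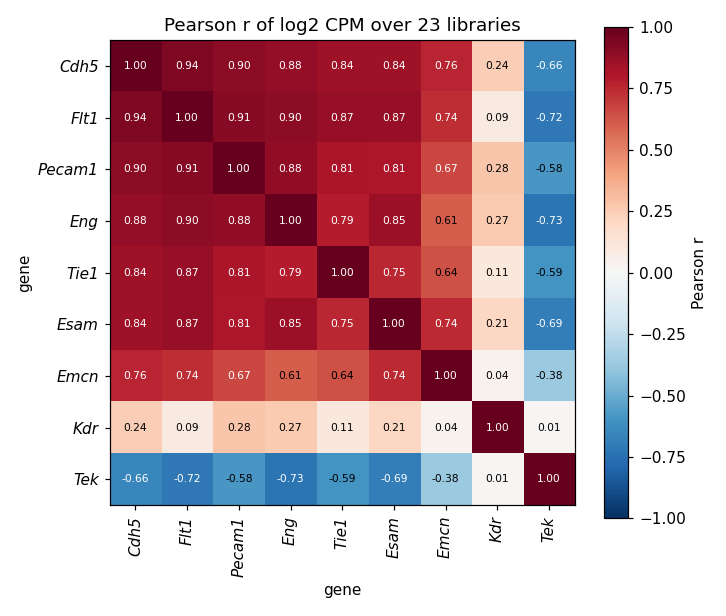
Pearson r of log2 CPM between pairs of the 9 tested members over 23 libraries, shown by colour and number. Cdh5, Flt1, Pecam1, Eng, Tie1, Esam and Emcn form a block of positive values, the Tek row is negative against that block and the Kdr row is near 0.

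Other endothelial genes split in the same comparisons. Of 28 further endothelial markers, 16 were tested. With siNS, 6 fell and 1 rose in eWAT aKO and 4 fell and 1 rose in iWAT aKO, and with siCEBPb 7 fell and 1 rose in eWAT and 10 fell and 1 rose in iWAT. The shares of all genes called in these comparisons were 20.4%, 15.2%, 10.8% and 10.0% in that order. The genotype that carried a gene over the filter was checked for the members alone, not for this list or those below. Counts over these lists may therefore include genes that entered the test mainly through Cont libraries. Without the shallow library, 6 fell and 2 rose of 18 tested in iWAT aKO siNS, with Vwf, the clotting factor of endothelium, at -0.70 ± 0.23 in place of -0.50 (adjusted p = 0.0293 in place of 0.303, edgeR). Cd93, a lectin-like receptor of endothelium and myeloid cells, fell in all 4, with log2 differences of -0.95, -1.79, -0.92 and -1.92 in eWAT siNS, eWAT siCEBPb, iWAT siNS and iWAT siCEBPb. It also fell with siCEBPb against siNS, with log2 differences of -1.59, -2.43, -1.61 and -2.62 in eWAT Cont, eWAT aKO, iWAT Cont and iWAT aKO. Jam2, a junctional adhesion molecule, passed in none of the genotype comparisons, at between -0.13 and -0.04. Thbd (thrombomodulin) fell in all 4, by 1.70, 1.23, 1.77 and 1.45 in the order used for Cd93. S1pr1, a sphingosine 1-phosphate receptor, fell by 0.73, 0.93, 0.72 and 0.88. Clec14a, a lectin of vessels, rose in all 4, by 2.05, 1.09, 2.19 and 1.03. Procr, the endothelial protein C receptor, passed in none of them, at between -0.02 and 0.20.

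The next lists are read against the share of all genes called, which was 20.4% in eWAT and 15.2% in iWAT for genotype under siNS. Among ligands and co-receptors, 8 VEGF-related genes were tested. In eWAT aKO siNS 2 rose and 4 fell: Vegfd rose by 0.83 and Vegfb by 0.30, and Vegfa, the main ligand of Kdr and Flt1, fell by 0.67, beside Pgf, Flt4 and Nrp1. In iWAT aKO siNS, Vegfd rose by 0.80 and Pgf fell by 2.21, and the Vegfa difference of -0.44 ± 0.23 did not pass (adjusted p = 0.217, edgeR). Without the shallow library Vegfa stood at -0.80 ± 0.07 there (adjusted p = 8.65e-10) and Flt4 at -0.92 ± 0.32 (adjusted p = 0.0439), so that 1 rose and 3 fell. Between the genotypes under siCEBPb 1 gene fell in eWAT (Pgf) and 0 in iWAT by edgeR, where 10.8% and 10.0% of all genes were called. Against siNS, siCEBPb went with a lower level of the co-receptor Nrp2, which fell by 0.89, 0.90, 0.84 and 1.00 in eWAT Cont, eWAT aKO, iWAT Cont and iWAT aKO. Of 6 angiopoietin ligands and TIE regulators, 2 rose and 2 fell with siCEBPb against siNS in Cont of each depot. In aKO, 2 rose and 3 fell in each depot. The shares of all genes called were 26.8%, 35.7%, 24.3% and 31.3% in eWAT Cont, eWAT aKO, iWAT Cont and iWAT aKO. Ptprb, a phosphatase that acts on Tek, was among those that rose, by 2.23, 2.08, 2.09 and 2.04 in the same order. Angpt2, a context-dependent ligand of Tek, rose with siCEBPb in Cont of both depots (0.58 and 0.69) and in eWAT aKO siNS (0.56). Of 13 tested partners of endoglin and BMP signalling, 5 rose and 1 fell in eWAT aKO siNS and 6 rose and 1 fell in iWAT. Among these, the BMP target Id1 rose by 0.78 and 0.69 and the inhibitor Smad6 by 0.74 and 0.76, and Tgfbr1 fell by 0.39 and 0.37. In siCEBPb against siNS in aKO, 6 of the 13 fell in each depot, where 35.7% and 31.3% of all genes were called. Without the shallow library 7 of the 13 fell in iWAT aKO, where 34.7% were called. Of 11 tested junction partners, 3 fell in eWAT aKO siNS and 2 in iWAT, among them Jup (plakoglobin, by 0.57 and 0.46) and F11r (by 0.93 and 1.52). Of 17 tested transcription factors of the endothelial list, 4 rose and 7 fell in eWAT aKO siNS and 5 rose and 6 fell in iWAT, with Ets1 down by 0.61 and 0.48 and Foxc1 up by 0.63 and 0.80 (all adjusted p under 0.05, edgeR). Without the shallow library, 5 factors rose and 7 fell of 18 tested in iWAT aKO siNS, where 18.4% of all genes were called.

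Markers of other cells moved with some of these results. Of 13 leukocyte and platelet markers, 11 were tested. With genotype, 7 of these fell in eWAT under siNS and 10 under siCEBPb, 5 and 8 fell in iWAT, and none rose. The shares of all genes called in these comparisons were 20.4%, 10.8%, 15.2% and 10.0% in that order. The 13 markers summed to 1770 to 2470 CPM in eWAT Cont siNS, 1440 to 1520 in aKO siNS, 325 to 379 in Cont siCEBPb and 84.6 to 180 in aKO siCEBPb, and in iWAT 1690 to 2340, 754 to 1450, 306 to 338 and 70.3 to 159. The 754 is the shallow library, and the lowest of the other libraries of its group was 1350. Lyz2, at a mean of 642 CPM over the 24 libraries, weighed most in these sums. Cd3e, the T-cell marker, was at 0 in all 24 libraries and the B-cell marker Cd79a in 16. With siCEBPb against siNS, 10 of 11 fell in eWAT Cont, 11 in eWAT aKO and 10 in each iWAT comparison, while Cdh5, Pecam1 and Eng passed none of these. Of all genes, 26.8%, 35.7%, 24.3% and 31.3% were called in eWAT Cont, eWAT aKO, iWAT Cont and iWAT aKO. The 10 members together summed to between 151 and 173 CPM in the Cont libraries and between 75.2 and 112 CPM in the aKO libraries, or from 96.4 without the shallow one. Without the shallow library, Eng alone made up most of this, at 99.9 to 120.4 CPM in Cont and 59.1 to 73.4 CPM in aKO. The sum therefore mainly follows that gene. The part of the leukocyte markers in the genotype differences was not tested.

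Of 8 mesothelial markers, 6 were tested and 3, 5, 3 and 4 fell with genotype in eWAT siNS, eWAT siCEBPb, iWAT siNS and iWAT siCEBPb. Of all genes, 20.4%, 10.8%, 15.2% and 10.0% were called there. The 8 markers summed to 24.7 to 32.6 CPM in Cont groups and 3.96 to 8.32 CPM in aKO groups (from 6.09 without the shallow library). Wt1 and Krt19, at means of 8.24 and 5.87 CPM, weighed most in these sums. Msln, a marker on this list that was not tested, was at 0 in 10 libraries. Wt1 was also one of the genes most like Eng and Pecam1. Which genotype carried the tested mesothelial genes over the filter was not checked, so their counts of falls support nothing by themselves. Of 10 adipocyte markers, 5 rose in eWAT aKO siNS, 2 in iWAT aKO siNS (3 without the shallow library) and 1 in iWAT aKO siCEBPb. None fell with genotype, where 20.4%, 10.8%, 15.2% and 10.0% of all genes were called in eWAT siNS, eWAT siCEBPb, iWAT siNS and iWAT siCEBPb. With siCEBPb against siNS, 2, 7, 2 and 6 of the 10 fell and 0 rose in eWAT Cont, eWAT aKO, iWAT Cont and iWAT aKO. The shares of all genes called there were 26.8%, 35.7%, 24.3% and 31.3%. Pericyte and smooth muscle markers (11 tested) summed to 1630 to 2600 CPM with siNS and 3710 to 5400 CPM with siCEBPb. Without the shallow library the siNS sums began at 1950 CPM. Acta2 and Tagln, at means of 1470 and 831 CPM, weighed most in these sums. With siCEBPb against siNS, 5 rose and 2 fell in eWAT Cont, eWAT aKO and iWAT Cont. In iWAT aKO 4 rose and 2 fell, or 5 and 2 without the shallow library. With genotype, 2 rose and 2 fell in eWAT aKO siNS and 2 rose and 4 fell in iWAT aKO siNS. Of 7 lymphatic markers 4 were tested and 1 fell in each siNS genotype comparison (2 in iWAT without the shallow library), and Ccl21a was at 0 in all 24 libraries. Fibroblast and progenitor markers (10 tested) summed to 22000 to 36900 CPM in 23 libraries and 59400 CPM in the shallow one. Col1a1 and Col3a1, at means of 17820 and 11590 CPM, weighed most in these sums, and Col1a1 was at 39220 CPM in the shallow library. Of the 10 markers, 4 rose and 1 fell in eWAT aKO siNS, 3 rose and 1 fell in iWAT aKO siNS, and 1 rose and 3 fell between the genotypes under siCEBPb in each depot. Without the shallow library, 4 rose and 1 fell in iWAT aKO siNS, where 18.4% of all genes were called. The shares of all genes called, given above for each comparison, apply to every list here. Schwann cell markers (3 of 5 tested) summed to 6.62 to 17.3 CPM in 23 libraries and 25.7 CPM in the shallow one, and the 6 epithelial markers to at most 1.73 CPM with 0 tested. The part of these cells in the members' differences was not tested.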

How the data were processed

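PolyA RNA from the 24 libraries was sequenced from a directional kit, per the labels. The submitters' processing notes name CASAVA, cutadapt 2.7, TopHat2 2.1.1, HTSeq, edgeR and GRCm38. The strand setting and annotation release used for counting were not given in the sources used here. The authors deposited raw gene counts, which were used unchanged, and 5 counter lines (27.5% to 39.5% of reads in 23 libraries, 95.9% in the shallow one) were left out. Symbols came from GENCODE for 53360 identifiers.

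All libraries entered 1 edgeR 4.0.16 quasi-likelihood fit with 1 mean per group (filterByExpr, minimum count 10, TMM, robust), Benjamini-Hochberg over all 14785 genes, threshold 0.05. SE is the log2 difference over the root of F, and 95% intervals use the fit's total (prior plus residual) degrees of freedom. CPM uses TMM-scaled library sizes. Alternatives were DESeq2 1.42.0 (size factors, Wald test), no filter, limma 3.58.1 voom, a replicate block and each library left out. The script was tested on simulated data.

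Same-numbered libraries were called paired where every r was over 0.1. This held between depots in Cont siNS (r = 0.271, 0.426 and 0.313 over 8159 genes) and aKO siCEBPb (0.744, 0.422 and 0.53), and not in the other comparisons, of which Cont siCEBPb by depot came nearest (0.0793, 0.234 and 0.159). The pairing comes from the numbers in the titles. The main fit, and so the depot p-values and intervals, did not use it. The members and lists were chosen with earlier results of these data known. Beyond the members, the rule allowed naming the 4 highest-expressed tested genes of each list, the 3 with the smallest p per comparison, and the 3 most correlated genes per member, of which 1 is not reported here. Cd3e, Cd79a, Ccl21a and Msln, and Vwf in the genotype comparison, were named after their values were seen.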

Additional observations from a re-analysis of the deposited data

Results flagged for a closer look

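Tek was flagged because the effect of the siRNA against Cebpb differed between genotypes in the test of that difference. The difference of log2 effects was -0.72 ± 0.16 in eWAT (95% interval -1.06 to -0.39) and -1.04 ± 0.18 in iWAT (-1.42 to -0.66), with adjusted p of 0.00718 and 0.00105 (edgeR quasi-likelihood test). Over the 18 alternatives run for eWAT and the 17 for iWAT, which include other tools and each library left out, the adjusted p was at most 0.0435 and 0.0179.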

How the results depend on the processing

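No member changed direction in a comparison where it was called. Over all members and comparisons, 664 values under other settings stayed on their side of the threshold, 8 lost and 3 gained a call; with 1 library left out, 1041 stayed, 19 lost and 2 gained. The count of called members in siCEBPb against siNS in aKO iWAT was 1 without the filter and 1 with DESeq2, in place of 2. Leaving out 1 library gave 1 to 2 there and 1 to 2 in aKO eWAT, Flt1 being the member lost. Under the replicate block, whose numbers pair libraries only in the 2 depot comparisons named above, Tie1 lost its call in eWAT siNS (adjusted p = 0.0724) and iWAT siCEBPb (0.0521), and 518 and 309 genes passed the genotype by siRNA tests in place of 938 and 519. With the block, 6, 6, 7 and 6 members were called in the genotype comparisons in place of 7, 6, 7 and 7, and it changed no count in the siRNA and depot comparisons. Across all genes, limma voom called 2568 in place of 1483 (genotype, siCEBPb, iWAT), 5938 in place of 3958 (siRNA, Cont, eWAT), 852, 3635, 1091 and 647 in place of 178, 496, 52 and 213 (depot) and 2059 and 1235 in place of 938 and 519 (genotype by siRNA). Without the filter 542, 138 and 521 genes passed by depot in Cont siNS, aKO siNS and aKO siCEBPb, 921 in the iWAT genotype by siRNA test and 18 in genotype by depot in place of 0. DESeq2 called 84 in place of 52 (depot, aKO siNS). The cause was not tested. Depth limits Tie1, Emcn, Esam and Cldn5, which rested on 0 to 21 counts per library.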
